A study of Mus musculus with 12 samples.

Results

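The sites described here are those of 5 deposited lists of binding sites that start in 6 windows of the mouse genome (build mm9), each set around a gene that acts in neurogenesis. The windows were given by coordinates: chr2:79240000-79350000 for Neurod1, chr10:129650000-129770000 for Neurod4, chr1:173930000-174040000 for Nhlh1, chr3:101760000-101870000 for Nhlh2, chr17:15450000-15560000 for Dll1 and chr1:93255000-93365000 for Hes6. They cover 670 kb and hold 188 of the 120275 listed sites. No annotation of mm9 was used, so the position of a site relative to an exon, intron or transcription start was not analysed here, and positions are given by coordinate or by the distance from the centre of the window. In RefSeq's table for GRCm38.p6, used for names alone, the nearest protein-coding genes on both sides are Cerkl and Itprid2 for Neurod1, Olfr827 and Tespa1 for Neurod4, Vangl2 and Ncstn for Nhlh1, Slc22a15 and Casq2 for Nhlh2, Ermard and Fam120b for Dll1, and Ilkap and Per2 for Hes6. A site in a window is therefore not assigned to the gene that gives the window its name.

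Chromatin immunoprecipitation followed by sequencing was done in P19, a mouse embryonal carcinoma line that can differentiate into neurons, after transduction with a basic helix-loop-helix (bHLH) factor. The 5 transduced groups carried MyoD, NeuroD2, the MD(ND2bHLH) chimera, which is MyoD with the bHLH domain of NeuroD2, or 1 of its mutants. The mutants are the MD(ND2bHLH)WC mutant (WC) and the MD(ND2bHLH)WCS mutant (WCS), and the meaning of the letters is not given by the labels. A neuronal medium replaced the growth medium after 48 h in all groups, and the labels name no hour of harvest. Each group has 2 libraries, made with different antibodies (6196 and 6975 against MyoD for MyoD and all chimeric proteins, 1165 and 1240 against NeuroD2 for NeuroD2), and 1 list. No spread between replicates can therefore be given and no test between groups was possible. The 2 libraries of untransduced P19 cells have no list analysed here, so no background level stands beside the sites.

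MyoD directs skeletal muscle differentiation and NeuroD2 belongs to the factors that drive differentiation of neurons. Factors of this class bind DNA as dimers at E-boxes, the sequence CANNTG, and the bases preferred in its middle and on its flanks differ between members. In the developing nervous system, proneural bHLH factors activate Dll1, which encodes a ligand of the Notch receptor, and Notch signalling in neighbouring cells keeps these undifferentiated through Hes genes. Hes6 is a member of the Hes family that counteracts Hes1 and favours differentiation, and both Dll1 and Hes6 are also known from muscle precursors. Neurod1 and Neurod4 encode bHLH factors that act after the proneural factors, and Nhlh1 and Nhlh2 encode bHLH factors of young neurons.

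The stretches before the starts of 4 of the genes are shown because their windows lie at both ends of the range of MyoD sites: the Nhlh2 window had none, and the windows of Nhlh1, Dll1 and Hes6 had the most. Each is the 250 bases that end at a start listed by RefSeq (GRCm38.p6; Nhlh2 on the plus strand, the others on the minus strand), written 5′ to 3′ along the gene, with every CANNTG in capitals. Dll1 and Hes6 have 2 listed starts, and the stretch with more E-boxes is shown.
Nhlh1: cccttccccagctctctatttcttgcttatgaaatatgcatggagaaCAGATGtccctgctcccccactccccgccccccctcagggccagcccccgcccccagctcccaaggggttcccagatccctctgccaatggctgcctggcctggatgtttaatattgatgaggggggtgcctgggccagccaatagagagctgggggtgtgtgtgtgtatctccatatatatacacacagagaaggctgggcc
Nhlh2: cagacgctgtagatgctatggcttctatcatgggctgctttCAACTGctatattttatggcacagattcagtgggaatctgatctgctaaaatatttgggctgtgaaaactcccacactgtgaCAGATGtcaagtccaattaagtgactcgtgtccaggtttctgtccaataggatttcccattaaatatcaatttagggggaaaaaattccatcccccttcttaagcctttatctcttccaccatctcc
Dll1: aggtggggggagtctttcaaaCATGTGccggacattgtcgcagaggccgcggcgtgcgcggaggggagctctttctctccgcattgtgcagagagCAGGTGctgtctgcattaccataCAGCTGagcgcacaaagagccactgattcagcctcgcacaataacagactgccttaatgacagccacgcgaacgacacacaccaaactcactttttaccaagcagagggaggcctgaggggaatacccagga
Hes6: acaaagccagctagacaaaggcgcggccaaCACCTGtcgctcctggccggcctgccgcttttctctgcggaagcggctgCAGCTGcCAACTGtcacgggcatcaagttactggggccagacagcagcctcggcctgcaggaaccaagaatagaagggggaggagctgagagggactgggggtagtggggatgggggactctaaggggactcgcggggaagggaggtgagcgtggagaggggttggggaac
The Nhlh1 stretch holds 1 E-box, and the Nhlh2 stretch holds 2; a CAGATG is in both. The Dll1 and Hes6 stretches hold 3 E-boxes each, among which both have a CAGCTG, and both have a CAGGTG form, read on the other strand in Hes6. At their other listed start, which is not shown, each gene has 1 E-box, CATTTG at Dll1 and CAGCTG at Hes6. The higher numbers at Dll1 and Hes6 than at Nhlh1 and Nhlh2 thus depend on the start that was shown. Over the 9 listed starts of the 6 genes, 7 stretches held a CANNTG, against 66.2% of the 32851 stretches in the table. CAGCTG, which reads the same on both strands, was in 3 of 9 against 13.0% of all. CAGATG, read with its other strand CATCTG, was in 2 of 9 against 14.4%, and CAGGTG, read with CACCTG, was in 2 of 9 against 17.2%. Of 18 further genes of neurogenesis and Notch signalling, 14 had an entry, and 7 of their 15 stretches held a CANNTG, 4 CAGCTG, 1 CAGATG and 3 CAGGTG. These matches describe the letters of the stretches, whose place among the mm9 sites was not analysed here.

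NeuroD2 and both mutants had at least 4 sites at each of the 6 loci, whereas the number of MyoD sites ranged from 0 to 11. MyoD had 1 site in the Neurod1 window, 2 in that of Neurod4, 7 in that of Nhlh1, 0 in that of Nhlh2, 8 in that of Dll1 and 11 in that of Hes6, 29 in all. NeuroD2 had 6, 9, 9, 12, 8 and 7 sites in the same order, 51 in all. The chimera had 4, 1, 4, 2, 5 and 4 sites, 20 in all. The windows with the fewest chimera sites, those of Neurod4 and Nhlh2, were among the 3 with the fewest MyoD sites, and they held the 2 highest numbers for WCS. WC had 5, 8, 7, 12, 10 and 4 sites, 46 in all, and WCS had 5, 8, 5, 11, 7 and 6, 42 in all. MyoD exceeded NeuroD2 in the Hes6 window, equalled it in the Dll1 window and had fewer sites in the other 4.

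The windows were dense in sites compared with the genome. They held 4.33 MyoD, 7.61 NeuroD2, 2.99 chimera, 6.87 WC and 6.27 WCS sites per 100 kb. Tiles of 110 kb over the 19 autosomes, 22460 in number, held a mean of 1.11 MyoD, 1.38 NeuroD2, 0.640 chimera, 1.19 WC and 0.984 WCS sites, and 56.1% of them had no MyoD site. At least 12 NeuroD2 sites, the number at Nhlh2, were in 0.459% of tiles, and 12 or more together with 0 MyoD sites in 8 tiles, or 0.0356%. At least 11 MyoD sites, the number at Hes6, were in 0.396% of tiles, and at least its 7 NeuroD2 sites in 3.37%. At least 7 MyoD sites, the number at Nhlh1, were in 2.3% of tiles and at least its 9 NeuroD2 sites in 1.4%. For Dll1, at least 8 MyoD sites were in 1.46% of tiles and at least 8 NeuroD2 sites in 2.14%. At least 6 NeuroD2 sites, the number at Neurod1, were in 5.24%. For Neurod4, whose window has 120 kb, 1.72% of 20591 tiles of that length held at least its 9 NeuroD2 sites and 27.6% at least its 2 MyoD sites. The single MyoD site at Neurod1 is a common count, since 43.9% of tiles of 110 kb had at least 1. Genes and sites are unevenly spread along chromosomes, and tiles without genes were not set apart.

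**Figure D1:**
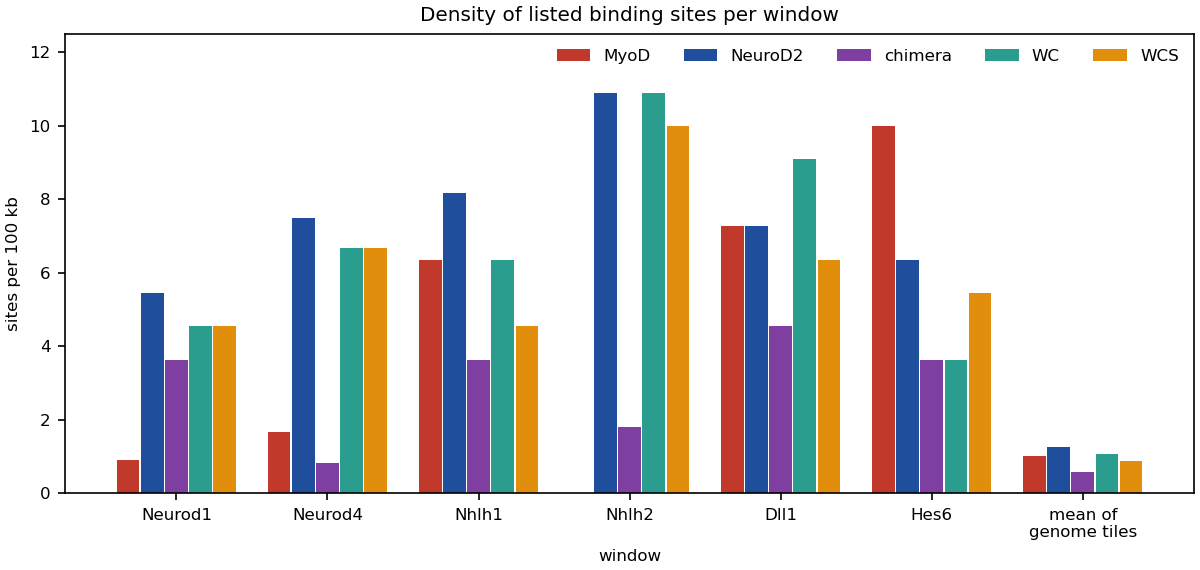
Sites per 100 kb (vertical axis) in each of the 6 windows for the 5 lists, with the mean over tiles of 110 kb at the right; each bar is 1 list, so there is no error bar. MyoD has no bar at Nhlh2 and its highest bar at Hes6. NeuroD2, the chimera, WC and WCS are above their genome means at every window, and MyoD is below its mean at Neurod1 and Nhlh2.

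In the text that follows, a region is a stretch covered by overlapping sites of any lists, and the value is the number the authors give each site, read within its own list by its percentile. Where a list had more than 1 site in a region, the highest value is given. The 188 sites formed 64 regions. The 37 of them (57.8%, against 30.5% of the regions of the genome) that were in 3 or more lists, which include the top site of every list in every window, are named below by locus.

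At Neurod1, which encodes a bHLH factor of neuronal differentiation, 4 regions were in 3 or more lists, and 3 of these lay at −40.2, −34.4 and −33.0 kb from the centre of the window. The region chr2:79261707-79262310 was in all 5 lists, with values of 75.5 for NeuroD2, 56.3 for WC, 69.0 for WCS, 8.70 for the chimera and 5.04 for MyoD. It held the top site of the window for NeuroD2, WC and WCS, at the percentiles 96.8, 94.5 and 96.9 of their lists, whereas the chimera's site was at 44.4 and that of MyoD at 0.315, close to the lowest value listed. The region chr2:79254507-79255166 had values of 56.6 for NeuroD2, 20.6 for WC, 17.8 for WCS and 6.83 for the chimera. The region chr2:79260406-79260778 was in the lists of NeuroD2, WC and WCS, with 8.15, 10.2 and 11.8. Near the centre of the window, chr2:79296835-79297322 had 24.4 for NeuroD2, 30.9 for WC, 36.0 for WCS and 22.6 for the chimera, and no MyoD site. It was the chimera's top site at this locus, at percentile 84.1 of its list. The other 4 regions were in 1 or 2 lists, 2 of them with NeuroD2 alone, a set that makes up 17.3% of the regions of the genome.

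At Neurod4, another bHLH factor of differentiating neurons, WC and WCS each held 7 of the 9 NeuroD2 sites (77.8%), and the chimera held 1. The exact Clopper-Pearson 95% interval of 77.8% runs from 40.0 to 97.2%. It includes the 58.3% and 53.0% of all NeuroD2 sites that WC and WCS held. Of the 11 regions, 6 were in 3 or more lists and are named here. All 6 were in the lists of NeuroD2 and both mutants, and the chimera had 1 of them. Regions were named for being in several lists, so this sharing follows in part from the choice. The region chr10:129681248-129681762 was in all lists, with 49.3 for NeuroD2, 36.4 for WC, 27.8 for WCS, 10.04 for the chimera and 6.52 for MyoD. The region chr10:129696464-129696905 was the MyoD site of highest value in the window, at 38.8 or percentile 89.4, and had 22.8 for NeuroD2, 12.7 for WC and 15.4 for WCS. The chimera, which differs from MyoD in the bHLH domain, had no site there. The remaining 4 regions had sites of NeuroD2 and both mutants and no others. At chr10:129669190-129669620 the values of NeuroD2, WC and WCS were 37.1, 36.4 and 28.7. At chr10:129718585-129719787 they were 42.0, 30.4 and 17.0, and at chr10:129730699-129731104 they were 6.98, 14.5 and 19.9. At chr10:129751448-129751934 they were 28.0, 39.2 and 41.9, the top site of both mutants in this window. The order of the 4 regions by value thus differed between the lists of NeuroD2 and WCS. The other 5 regions were in 1 or 2 lists, none of them with MyoD or the chimera.

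At Nhlh1, MyoD and NeuroD2 each had several sites, and 3 of the 7 MyoD sites (42.9%) overlapped a NeuroD2 site, against 25.7% of all MyoD sites. The region chr1:174001601-174002456 was in all lists, with 124 for WC, 109 for WCS, 101 for NeuroD2, 24.7 for the chimera and 13.4 for MyoD. It was the top site of the window in every list but that of MyoD, at percentile 99.1 for WC, 99.0 for WCS, 98.4 for NeuroD2, 85.9 for the chimera and 60.5 for MyoD. The MyoD list had its top site at chr1:173943880-173944303, with 42.8, where the chimera had 22.2 and WC 19.0. This region was in the lists of neither NeuroD2 nor WCS. It was the only region of the 6 windows with this set of lists, which makes up 1.09% of the regions of the genome. The region chr1:173979611-173980185 had 13.8 for MyoD, 28.1 for NeuroD2, 10.03 for WC and 7.05 for WCS. The region chr1:174025315-174025841 had 8.29 for MyoD, 21.9 for NeuroD2, 24.2 for WC and 11.8 for WCS. Both lacked a chimera site. The region chr1:173990809-173991804 held 2 sites each of NeuroD2, WC and WCS under 1 chimera site, with highest values of 34.8, 12.1, 9.43 and 11.5 in that order, and no MyoD site. Of the other 7 regions 2 were of MyoD alone, 3 of NeuroD2 alone, 1 of MyoD with the chimera and 1 of NeuroD2 with WC. In this order the sets make up 22.2%, 17.3%, 4.4% and 3.92% of the regions of the genome.

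At Nhlh2 the MyoD list had no site, and WC and WCS each held 11 of the 12 NeuroD2 sites, against 58.3% and 53.0% of all NeuroD2 sites. With 0 of 12 NeuroD2 sites overlapping a MyoD site, the exact Clopper-Pearson 95% interval reaches 26.5%, and the 20.4% of all NeuroD2 sites that overlap a MyoD site lies inside it. The chimera held 2 of the 12, or 16.7%, against 23.7% of all. The NeuroD2 site of highest value, chr3:101866323-101866918, had 55.9 for NeuroD2, 18.6 for WC and 26.4 for WCS and lay 51.6 kb after the centre of the window. The chimera's sites were at chr3:101853076-101853545, with 38.9 for NeuroD2, 27.2 for WC, 30.2 for WCS and 6.44 for the chimera, and at chr3:101859747-101860196, with 32.7, 27.7, 28.1 and 5.65 in the same order. Both chimera values were low in their list, at percentiles 20.3 and 7.87, at regions that had the next highest NeuroD2 values of the window.

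The other 8 named regions at Nhlh2 were in the lists of NeuroD2, WC and WCS alone, and most had moderate values. At chr3:101771018-101771505 the values of NeuroD2, WC and WCS were 32.3, 18.0 and 11.8. At chr3:101804377-101804689 they were 12.3, 5.69 and 6.21, and at chr3:101815789-101816065, 0.9 kb from the centre, they were 6.89, 8.62 and 6.05. Then 4 regions followed each other within about 6 kb. The first, chr3:101824443-101824800, had 11.3, 14.6 and 7.28, and the second, chr3:101827140-101827456, had 11.8, 15.5 and 19.4. After it, chr3:101828368-101828807 had 10.03, 10.7 and 10.02, and chr3:101830149-101830586 had 12.9, 16.3 and 18.6. The percentiles of these 4 regions ran from 47.9 to 59.4 in the NeuroD2 list. They ran from 50.7 to 67.8 in that of WC and from 30.3 to 76.0 in that of WCS, so none was in the top 10% of a list. Farther on, chr3:101853680-101854155 had 8.96, 5.36 and 5.03. One region was of NeuroD2 alone and another of WC alone, sets that make up 17.3% and 6.31% of the regions of the genome.

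**Figure D2:**
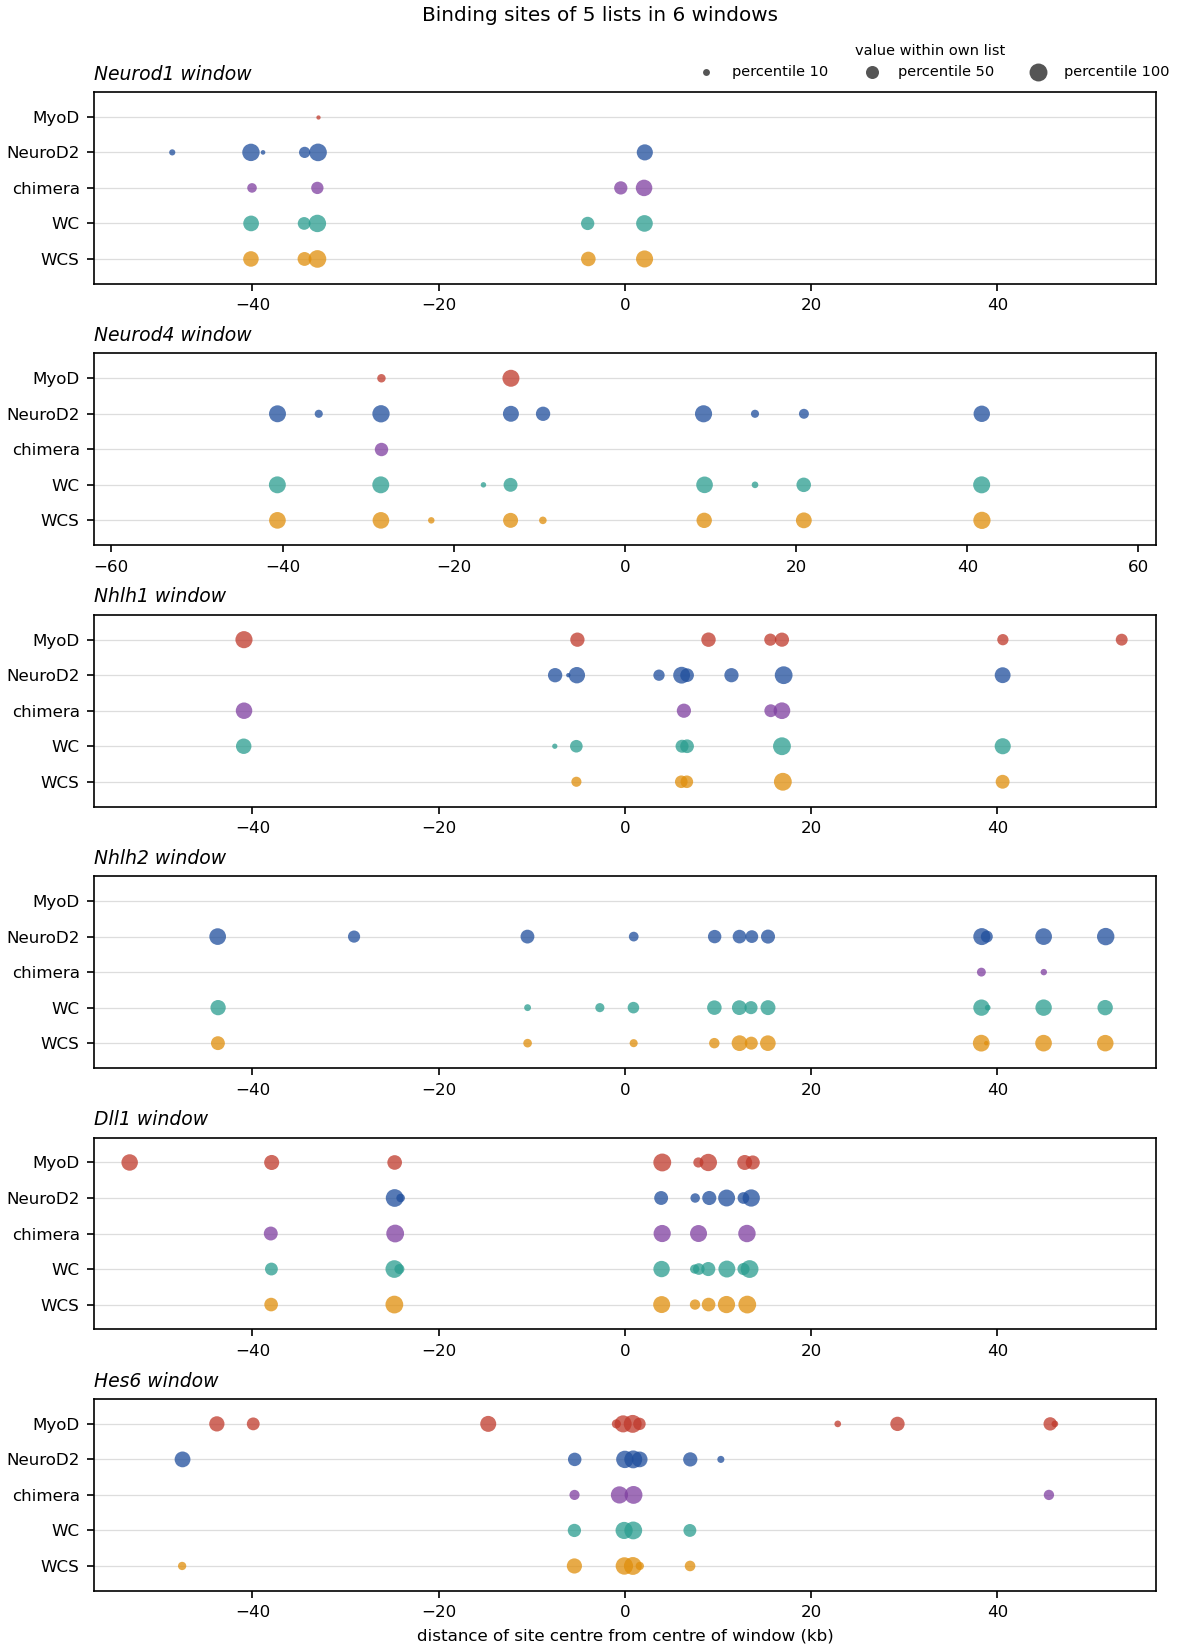
Sites of the 5 lists (rows) in the 6 windows (panels), by distance of the site's centre from the centre of the window in kb; point area grows with the percentile of the site's value in its own list. At Nhlh2 the MyoD row is empty and the rows of NeuroD2, WC and WCS carry points at the same places, and at Hes6 all rows meet near the centre.

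At Dll1, the gene of the Notch ligand, 4 of 7 regions were in all 5 lists, and the region of highest value differed between the parents. At chr17:15508689-15509296, 4.0 kb from the centre of the window, MyoD had its top site with 150.3 (percentile 99.4), while the values were 12.6 for NeuroD2, 33.8 for the chimera, 34.0 for WCS and 27.3 for WC. At chr17:15479872-15481129 NeuroD2 had its top site with 91.0 (percentile 97.9), and the values were 76.8 for the chimera, 79.8 for WC, 90.4 for WCS and 15.1 for MyoD. Each parent's top region was thus a site of moderate value in the other parent's list, at percentile 57.9 for NeuroD2 and 64.9 for MyoD. At the NeuroD2-led region the chimera was at percentile 98.4, WC at 97.2 and WCS at 98.4. At the MyoD-led region they were at 91.4, 82.7 and 89.0.

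Downstream in coordinate, chr17:15511586-15514245 joined 2 MyoD, 2 NeuroD2, 3 WC and 2 WCS sites under a single chimera site of 2643 bp, the widest of the windows. Its highest values were 53.1 for MyoD, 13.3 for NeuroD2, 29.4 for the chimera, 11.2 for WCS and 13.1 for WC. The region chr17:15517408-15519019 had 103 for WC, 86.0 for WCS, 48.4 for NeuroD2, 41.3 for the chimera and 16.5 for MyoD. Between them, chr17:15515615-15516232 was in the lists of NeuroD2, WC and WCS, with 37.0, 36.8 and 42.2. This was the single Dll1 region in those 3 lists and no other. The region chr17:15466762-15467320 had 16.9 for MyoD, 10.9 for the chimera, 11.2 for WCS and 10.4 for WC, and no NeuroD2 site. It is the 1 region of the 6 windows in every list except that of NeuroD2, a set that makes up 0.843% of the regions of the genome. The seventh region, at −53.2 kb from the centre, was of MyoD alone with 28.5.

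At Hes6, which encodes the Hes family member that favours differentiation, all 5 lists had their top site of the window in the same region. The region chr1:93310555-93311292, 0.9 kb from the centre of the window, had values of 237 for MyoD, 163 for NeuroD2, 99.2 for the chimera, 129.9 for WCS and 111 for WC. These lay at percentiles 99.9, 99.6, 99.2, 99.4 and 98.8 of their lists, in the same order. No other of the 6 windows had its top site in 1 region for all lists. The neighbouring region chr1:93308643-93310249 was also in all lists, with 41.3 for MyoD, 55.4 for NeuroD2, 34.5 for the chimera, 49.8 for WCS and 43.2 for WC. On the other side, the region chr1:93311378-93311788 had 9.74 for MyoD, 21.1 for NeuroD2 and 6.07 for WCS, and no site of WC or the chimera.

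Away from the centre the Hes6 window held sites of separate kinds. The region chr1:93304379-93304771 had 11.5 for NeuroD2, 7.08 for the chimera, 16.2 for WCS and 11.1 for WC, and no MyoD site. The region chr1:93316800-93317197 had 13.6, 10.4 and 7.39 for NeuroD2, WC and WCS. MyoD alone held 5 of the 13 regions, a set that makes up 22.2% of the regions of the genome. Their values ran from 5.69 to 22.9, and MyoD shared 1 further region with the chimera. Of the 11 MyoD sites, 3 (27.3%) overlapped a NeuroD2 site, against 25.7% of all MyoD sites. The chimera held 5 of them (45.5%, against 33.5%) and WC 2 (18.2%, against 28.8%). RefSeq lists 4 other protein-coding genes within 50 kb of Hes6 in GRCm38.p6, the most of the 6 genes, and 0 within 50 kb of Nhlh2.

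**Figure D3:**
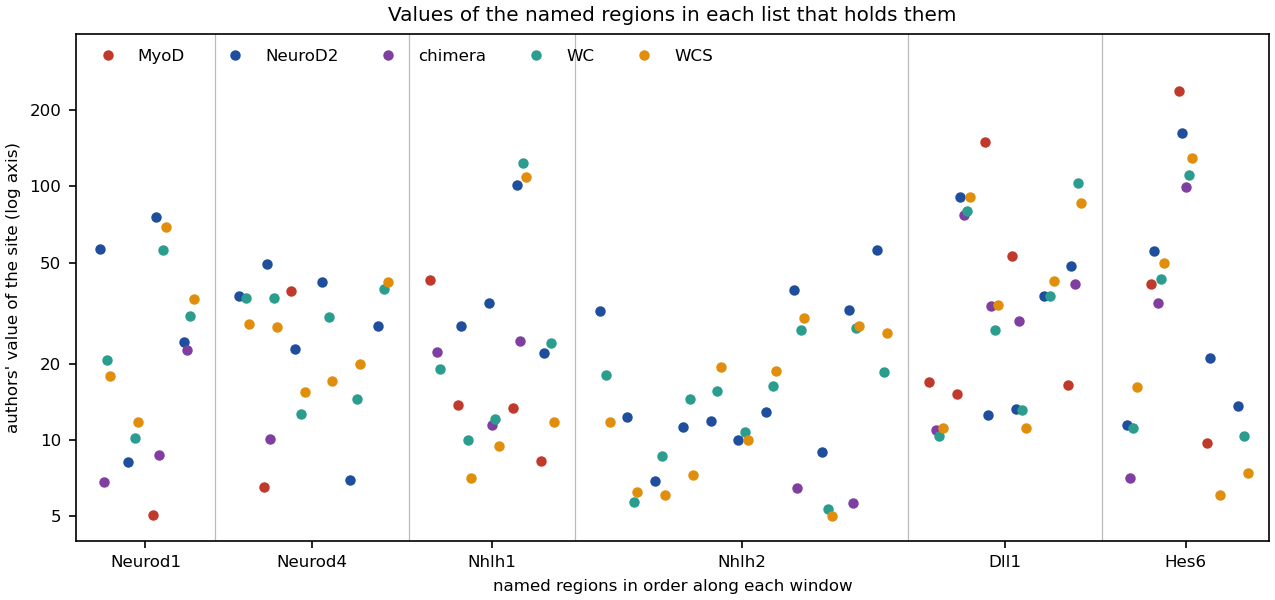
The authors' value (log axis) of each of the 37 named regions in each list that holds it, in order along the 6 windows; points are single sites, and values of different lists are not on a shared scale of depth. The highest MyoD points are at Hes6 (237) and Dll1 (150.3), and MyoD is missing from all Nhlh2 regions.

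Over the 6 windows both mutants held most NeuroD2 sites and the chimera fewer. Of 51 NeuroD2 sites, WC held 40, or 78.4% (exact Clopper-Pearson 95% interval 64.7 to 88.7%), against 58.3% of all NeuroD2 sites. WCS also held 40 of 51, against 53.0% of all. The chimera held 18, or 35.3% (22.4 to 49.9%), against 23.7% of all, and MyoD 14, or 27.5% (15.9 to 41.7%), against 20.4%. The lists differ in length, with 14375 sites for the chimera, 22462 for WCS, 24935 for MyoD, 27045 for WC and 31458 for NeuroD2. A longer list has more sites that can overlap. With all lists shortened to 14375 sites, WC held 78.8% of the NeuroD2 sites of the windows, WCS 75.8%, the chimera 45.5% and MyoD 30.3%. Where centres had to lie within 100 bases, the chimera and MyoD each held 15.7%, while WC held 68.6% and WCS 74.5%, so the chimera's share and its lead over MyoD depend on the overlap rule. The intervals cover counting error alone, and sites of 1 window share their surroundings, so they are not independent. NeuroD2 sites of the windows had higher values than the list as a whole, with a median of 13.6 against 10.5. In the upper 50% of the NeuroD2 list by value, WC held 77.4% of sites, WCS 72.5%, the chimera 32.9% and MyoD 25.1%, all inside the intervals of the windows. Sites of the windows and of this upper 50% were not matched further on value.

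Of the MyoD sites of the windows, each other list held a larger share than of MyoD sites at large, a difference for which no test was possible. NeuroD2 held 14 of 29, or 48.3% (29.4 to 67.5%), against 25.7% of all MyoD sites and 33.0% of the upper 50% of the list. The chimera held 17, or 58.6% (38.9 to 76.5%), against 33.5% of all and 48.0% of the upper 50%. WC held 16, or 55.2% (35.7 to 73.6%), against 28.8% and 37.7%, and WCS also 16, against 25.1% and 32.8%. All 4 values for the whole list lay below the interval of the windows, and of those for the upper 50% only that of WCS did. Where centres had to lie within 100 bases, NeuroD2 held 27.6% and the chimera 31.0% of the MyoD sites of the windows. Shares of the whole list were not computed under this rule, so those above are not a like comparison for these 2 values. These shares differed by locus: WC held 7 of 8 MyoD sites at Dll1, 4 of 7 at Nhlh1 and 2 of 11 at Hes6.

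**Figure D4:**
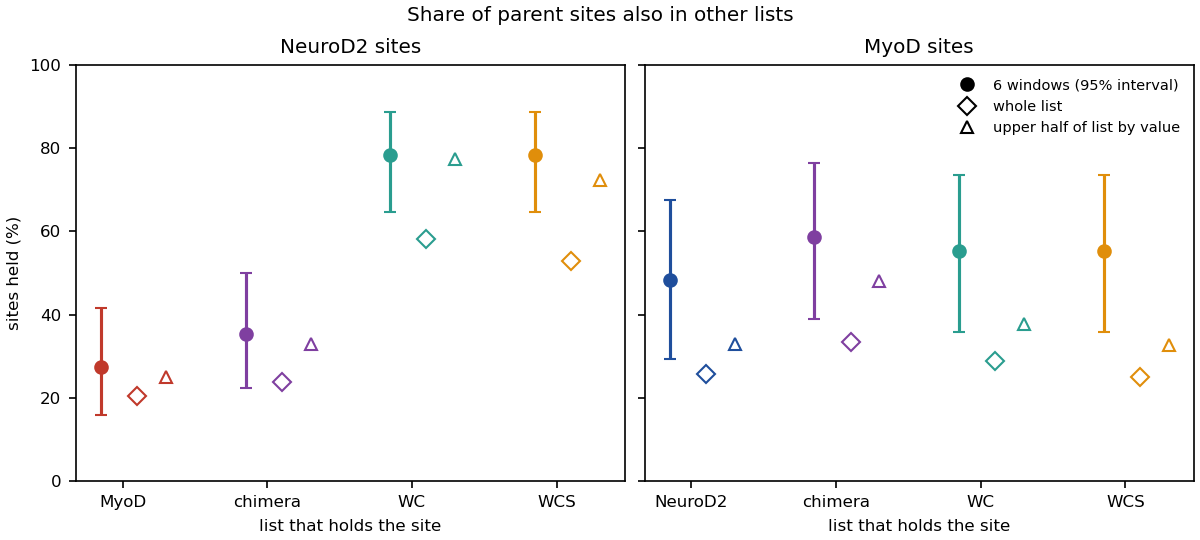
Share of NeuroD2 sites (left) and of MyoD sites (right) that overlap a site of the list on the horizontal axis; filled points are the 6 windows with exact 95% intervals, open diamonds the whole list and open triangles the upper 50% of the list by value. Both mutants hold 78.4% of the NeuroD2 sites of the windows and the chimera 35.3%, and the triangles on the left lie inside the intervals.

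Seen from the chimeric proteins, nearly all sites in the windows were also sites of a parent. Among the 20 chimera sites, 9 met a site of each parent, 4 met MyoD's list alone, 6 met NeuroD2's alone and 1 met neither, so 5.00% were outside both parents' lists against 20.9% of all chimera sites. For the 46 WC sites these numbers were 13, 3, 27 and 3, and the share outside both was 6.52% against 25.5% of the whole list. For the 42 WCS sites they were 14, 1, 25 and 2, and the share outside both was 4.76% against 20.2%. The single chimera site outside both parents lay at the centre of the Neurod1 window, at chr2:79294111-79295001 with a value of 9.92 (percentile 52.3). It was chosen for mention after its values were seen.

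The most frequent set of lists among the 64 regions was NeuroD2 with both mutants, 16 regions or 25.0%, against 12.6% of the 60136 regions of the genome. Of these 16 regions, 9 were at Nhlh2, 4 at Neurod4 and 1 each at Neurod1, Dll1 and Hes6, with 0 at Nhlh1. All 5 lists held 9 regions, or 14.1%, against 5.85% of the genome, and 4 of these were at Dll1. Without the Dll1 window 5 of the 57 regions left were in all lists. Without the Nhlh2 window 7 of the 51 regions left were of NeuroD2 with both mutants, against the 12.6% of the genome. The higher share of this set thus rested largely on the Nhlh2 window. The lists of NeuroD2, the chimera and both mutants without MyoD's shared 6 regions, or 9.38%, against 4.32% of the genome. They were at Neurod1 (2), Nhlh2 (2), Nhlh1 (1) and Hes6 (1). Regions of a single list made up 31.2%, against 52.2% of the genome, with 8 of MyoD alone, 5 of which were at Hes6, and 8 of NeuroD2 alone.

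The distance between the centres of sites that 2 lists had in the same region differed between pairs of lists. Over the 32 regions with 1 NeuroD2 and 1 WC site the median distance between centres was 34.2 bp, and over the 33 with 1 NeuroD2 and 1 WCS site it was 26.5 bp. Genome-wide these medians were 31.5 and 31.0 bp. For NeuroD2 and the chimera the median was 72.5 bp over 11 regions (40.5 bp genome-wide), with a largest distance of 582 bp. Between chimera and WC sites the median was 35.0 bp over 13 regions (43.0 bp genome-wide), with a largest distance of 502 bp. Between chimera and WCS sites it was 49.2 bp over 14 regions (45.0 bp genome-wide), with a largest distance of 526 bp. The distances of 582, 502 and 526 bp all came from 1 wide chimera site of 1543 bp, chr1:93308643-93310185 at Hes6. As a description across regions, which share the libraries behind each list, the values of WC and WCS ranked alike, with a Spearman coefficient of 0.92 over 32 regions (0.76 genome-wide). It was 0.78 for NeuroD2 and WC over 32 regions (0.56 genome-wide) and 0.65 for NeuroD2 and WCS over 33 (0.56 genome-wide). For MyoD and NeuroD2 it was −0.03 over 9 regions (0.14 genome-wide). For MyoD and the chimera it was 0.80 over 9 regions (0.39 genome-wide). The chimera's coefficient was 0.71 with WCS over 14 regions (0.32 genome-wide) and 0.46 with WC over 13 (0.35 genome-wide). With NeuroD2 it was 0.34 over 11 (0.22 genome-wide). MyoD had −0.14 with WC over 10 regions (0.19 genome-wide) and 0.23 with WCS over 11 (0.17 genome-wide).

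The lists of MyoD and the chimera have no site on chromosome X and none shorter than 125 and 200 bp, whereas those of NeuroD2, WC and WCS have sites down to 53 and 54 bp. In the 6 windows, which are on autosomes, the shortest site had 174 bp. The shares of whole lists and of the regions of the genome were taken over all chromosomes, and only the tiles over autosomes. A site on chromosome X cannot meet a site of MyoD or the chimera, and these shares were not computed without chromosome X. Whether the lists were filtered in different ways before deposit was not tested, and a batch common to NeuroD2, WC and WCS cannot be told apart from the proteins.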

How the data were processed

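ChIP-seq was done by the authors in 12 libraries of P19 cells in 6 groups of 2. Per the labels' protocols, fixation took 11 min in 1% formaldehyde and sonication gave fragments of about 150 to 600 bp. CASAVA 1.8.2, BWA 0.7.5 and build mm9 are named in the submitters' processing notes. No label or header names the peak caller, the background, the filters or how libraries were pooled. The authors deposited 1 list per transduced group, in which each site has a score. No header names its scale. From the values (at least 5.00, highest finite value 312.2, with 59 infinite over the lists and 0 in the windows) it looks like −log10 of a p-value, so it served to order sites of the same list. The files give no read depth.

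Sites were taken where their start, counted from 1, lay in a window. A site was held by another list at an overlap of at least 1 base, and overlapping sites of all lists were merged to regions. Tiles ran from the start of each autosome to its last listed site. Regions in 3 or more lists, and the top site of each list per window, were named. Promoter stretches are the first 250 bases of RefSeq's windows. The members and lists were chosen with earlier results of these data known. No test was run, since each group has 1 list. Overlap was tested against a direct count with moved copies of part of the NeuroD2 list. Merging was checked only for not giving more regions than that list has sites. The versions were matplotlib 3.10.9, scipy 1.17.1, pandas 2.3.3, numpy 2.4.6 and Python 3.11.15.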

Additional observations from a re-analysis of the deposited data

How the results depend on the processing

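Of 249 values recomputed for 30 results under alternatives, 229 stayed within 1.5 times a count or inside the interval of a share. When each list was limited to its top 50% by value, the windows held 18 MyoD and 13 chimera sites, and 2 regions were in every list except that of MyoD. With all lists shortened to 14375 sites they held 33 NeuroD2 sites, 9 regions of NeuroD2 with both mutants and 5 of NeuroD2 alone. In windows widened by 50% of their length on both sides the density was 5.00 NeuroD2, 1.87 chimera and 4.18 WCS sites per 100 kb. Where centres had to lie within 100 bases, MyoD and the chimera each held 15.7% of NeuroD2 sites, NeuroD2 held 27.6% and the chimera 31.0% of MyoD sites, and NeuroD2 held 40.0% of chimera sites. Leaving out each window in turn was chosen after seeing the data. Without the Hes6 window there were 18 MyoD sites, of which WC held 77.8%, and 3 regions of MyoD alone. Without Dll1, 5 of 57 regions were in all lists, and without Nhlh2, 7 of 51 were of NeuroD2 with both mutants. Without Nhlh1, 5 of 52 were of NeuroD2 alone. Read depth is unknown, so the absence of a site from a list does not show absence of binding. No paired analysis was possible because each group has 1 list, and for the same reason no library could be left out.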
